A study of Mus musculus with 6 samples.

Results

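The BCL2 family of apoptosis regulators was followed across 6 RNA-seq libraries of mouse blood progenitors, through 10 genes listed by name: the pro-survival genes Bcl2, Bcl2l1 and Mcl1 and the pro-death genes Bax, Bak1, Bcl2l11, Bbc3, Pmaip1, Bid and Bad. All 10 were found by symbol among the 49671 gene identifiers of the table, and all 10 passed the filter on low counts. The cells were LSK cells (Lineage-negative, Sca-1-positive and Kit-positive marrow cells, a small fraction in which stem cells of the blood are found beside multipotent cells) of BALB/c mice. Progenitor-enriched marrow had been infected with a retrovirus carrying a hairpin against Cxxc5 (shCxxc5, 3 libraries) or one that targets no mouse gene (shCtrl, 3 libraries), and GFP-positive LSK cells were sorted and pooled over several animals. Both groups therefore share the infection, the GFP marker and the sort, and the labels name 1 hairpin label per group and no age. Libraries are numbered 2, 3 and 4 in each group. The labels do not say that a number is a separate infection, so the spread behind every p-value is that of the libraries and may be technical. The common coefficient of variation within groups, estimated by edgeR, was 0.0294 in replicates 3 and 4 and 0.312 over all 6 libraries. A p-value from replicates 3 and 4 rests on that very small spread and cannot be read as one over separate infections.

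The family sets whether a cell opens its outer mitochondrial membrane and releases cytochrome c, the step that commits it to the intrinsic route of apoptosis. Pro-survival proteins (BCL2, BCL-XL from Bcl2l1, MCL1) hold the pore-forming effectors BAX and BAK in check, and BH3-only proteins (BIM from Bcl2l11, PUMA from Bbc3, NOXA from Pmaip1, BID and BAD) relieve that check or activate the effectors directly. MCL1 is needed for blood stem cells to survive, BCL-XL for platelets and late erythroid cells, and BIM and PUMA are the BH3-only proteins best known for killing blood cells that lose growth factor support or suffer DNA damage. Much of the control of these proteins lies after transcription, and the libraries measure messenger RNA only.

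Total counts ran from 15002414 to 27754019 per library, and each member had at least 226 reads in every library. Cxxc5 was lower with its hairpin, at 82.2, 59.9 and 57.9 CPM (reads scaled to a common library size with edgeR's TMM factors) in shCtrl replicates 2, 3 and 4 and at 6.74, 17.4 and 17.9 in shCxxc5. Both replicate 2 libraries stood apart from the other 4. The sort marker gene Ly6a, which encodes Sca-1, lay at 46.4 and 33.1 CPM in them against 703 to 804 CPM elsewhere, while Kit lay between 82.4 and 110.4 CPM in all 6. Of 8 sort and stem cell genes, these among them, 4 were higher on average in replicate 2. Slamf1 was among the higher (120.7 and 48.1 CPM against 13.5 to 18.0 CPM elsewhere) and Cd34 among the lower (755 and 513 CPM against 1066 to 1155 CPM). The summed level of 12 megakaryocyte genes came to 7095 CPM in the shCtrl library numbered 2, to 1670.2 CPM in its shCxxc5 counterpart and to 302 to 488 CPM in the others, with all 12 genes higher in replicate 2. The 12 granulocyte and monocyte genes summed to 6282 CPM in shCxxc5 replicate 2 and to between 1194 and 1866 CPM in the other 5 libraries. Most of the 6282 CPM came from the granule genes Mpo (2914 CPM), Ctsg (1034 CPM) and Prtn3 (896 CPM). Lyz2 (135 CPM) and Csf1r (25.9 CPM) were lower there than in any other library. On average 7 of the 12 genes were higher in replicate 2. Erythroid genes (12) summed to 1044 CPM in shCxxc5 replicate 2 and 429 to 535 CPM elsewhere. Most of these sums was Tfrc, at 832 CPM in that library and 365 to 522 CPM elsewhere. All 12 erythroid genes were higher on average in replicate 2. Hbb-bs, for one, lay at 19.9 CPM in shCtrl and 52.4 CPM in shCxxc5 of replicate 2 and at 2.78 to 4.44 CPM in replicates 3 and 4. Mast cell and basophil genes (10) summed to 1882 CPM in that library and 341 to 619 CPM elsewhere. B cell genes (8) summed to at most 33.7 CPM and T and NK cell genes (8) to 43.9 to 81.8 CPM, mostly from Lck and Nkg7, with no read of Cd3e. Results are therefore given over all 6 libraries, within each pair of equal number, and in replicates 3 and 4 alone.

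Of the 5 BH3-only transcripts 2 fell with the Cxxc5 hairpin in replicates 3 and 4, and no other member passed there. Bcl2l11 and Bbc3 fell in replicates 3 and 4, to 1.30-fold and 1.43-fold lower levels, and the ratio was below 1 for both in all 3 pairs. The 3 pro-survival transcripts differed by 0.05 to 0.07 log2 units in replicates 3 and 4 and none of them passed the test. Transcripts of the effectors and of Bid and Bad were slightly higher there, by 0.09 to 0.17 log2 units, and did not pass either. In counts, 2 of 10 members passed edgeR's quasi-likelihood test in replicates 3 and 4 (2 libraries per group), both lower, where 20.0% of 14193 tested genes passed (1555 or 11% higher and 1278 or 9% lower), so members were called about as often as genes at large. In replicates 3 and 4 the groups did not overlap for 4 members on the higher side (Bax, Bak1, Bid and Bad) and for 5 on the lower side (Bcl2, Mcl1, Bcl2l11, Bbc3 and Pmaip1), against 27.8% and 29.4% of all genes.

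Over all 6 libraries no member passed (0 of 10), and neither did any other gene (0% of 14637 genes by edgeR). Even Cxxc5 itself did not pass there (log2 fold change -2.25, SE 0.40, edgeR adjusted p 0.940), so the lack of calls does not show a lack of change. At an unadjusted p under 0.05 there were 575 genes, among them 1 member, Bcl2l11. DESeq2 on the same genes called 19 genes and limma-voom 0, and no member was among them. The groups did not overlap in all 6 libraries for 3 members: all shCxxc5 values were below all shCtrl values for Bcl2l11 and above them for Bak1 and Bid. Among all tested genes 6.35% were separated in this way to the lower side and 6.72% to the higher side.

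**Figure D1:**
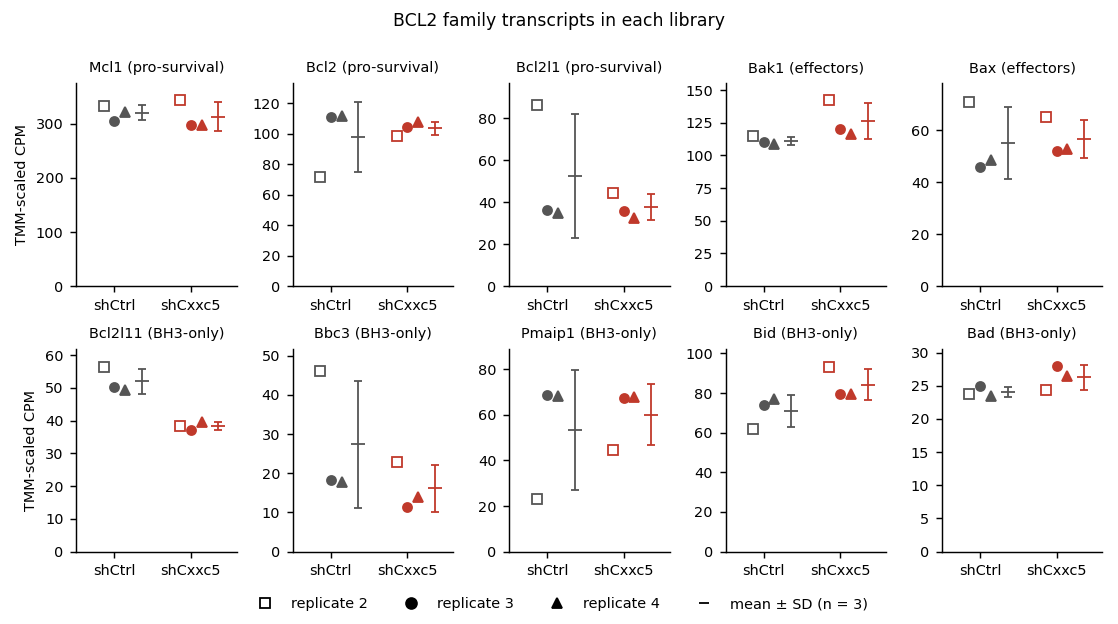
TMM-scaled CPM (y axis, from 0) of the 10 members in each library, shCtrl in grey and shCxxc5 in red, with open squares for replicate 2, circles for replicate 3, triangles for replicate 4 and the mean with its SD (n = 3) beside them. Bcl2l11 lies between 37.0 and 39.6 CPM in shCxxc5, below all shCtrl libraries, while the replicate 2 squares stand off for Bcl2l1, Bax, Bbc3 and Pmaip1.

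Bcl2l11 encodes BIM, which binds all pro-survival proteins and can activate BAX and BAK directly. Its level was 56.5, 50.4 and 49.3 CPM in shCtrl replicates 2, 3 and 4 and 38.5, 37.0 and 39.6 CPM in shCxxc5. Every shCxxc5 value was thus below every shCtrl value, and the shCxxc5 libraries lay within 3 CPM of each other although replicate 2 differed so much in other genes. Group means were 52.0 ± 3.86 CPM in shCtrl and 38.3 ± 1.29 CPM in shCxxc5 (SD, n = 3). The fall was 1.47-fold in pair 2, 1.36-fold in pair 3 and 1.25-fold in pair 4. The log2 fold change fitted by edgeR in replicates 3 and 4 was -0.38 (SE 0.07), and its quasi-likelihood test had an adjusted p of 9.97e-05 (Benjamini-Hochberg). Over all 6 libraries the fitted value was -0.44 (SE 0.10), the adjusted p 0.940, and with the replicate number as a block 0.332. The effect did not differ detectably between replicate 2 and the other replicates (log2 difference -0.17, SE 0.11, edgeR adjusted p 0.241).

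Bbc3 encodes PUMA, a BH3-only protein best known as a p53 target. Its level was 46.2, 18.2 and 17.8 CPM in shCtrl replicates 2, 3 and 4 and 23.0, 11.4 and 14.0 CPM in shCxxc5, from 226 to 1093 reads. Both replicate 2 libraries were the highest of their group, so the groups overlapped over all 6 libraries, while each shCxxc5 library was below the shCtrl library of its number. It was 2.01-fold lower in pair 2, 1.59-fold lower in pair 3 and 1.28-fold lower in pair 4. The value fitted by edgeR in replicates 3 and 4 was -0.52 on the log2 scale (SE 0.11), at an adjusted p of 0.000884. Without shCxxc5 replicate 3 that call was lost, with a log2 fold change of -0.36 and an adjusted p of 0.0889 by edgeR. Over all 6 libraries the value fitted by edgeR was -0.77 (SE 0.46) with an adjusted p of 0.940, and it was -0.16 without shCtrl replicate 2 and -1.11 without shCxxc5 replicate 2. The summed megakaryocyte genes had the same order of libraries at the top (shCtrl replicate 2, then shCxxc5 replicate 2). In replicates 3 and 4 they were lower with the hairpin, at 309.8 and 302 CPM against 488 and 487 CPM. Most of these sums was Itgb3, at 211 and 206 CPM against 341 and 330 CPM. None of the 12 genes was higher on average there, and 5 of the 10 tested were called lower by edgeR. Several of the 12 were near 1 CPM. The part of megakaryocyte genes in the levels of Bbc3 and Bcl2l11 was not tested.

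The other 3 BH3-only transcripts did not pass the test. Pmaip1 encodes NOXA, which binds MCL1 and speeds its turnover. It lay at 23.0, 68.8 and 68.3 CPM in shCtrl replicates 2, 3 and 4 and at 44.5, 67.6 and 67.8 CPM in shCxxc5. The libraries numbered 3 and 4 were within 2 CPM of each other across the groups, and both replicate 2 libraries were lower than those. The fitted log2 fold change in replicates 3 and 4 was -0.01 (SE 0.05, edgeR adjusted p 0.905), against a pair 2 ratio of 0.95 on the log2 scale.

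Bid encodes a protein that caspase-8 cleaves into an activator of BAX and BAK, which ties death receptors to mitochondria. It lay at 61.9, 73.9 and 76.8 CPM in shCtrl and 93.3, 79.6 and 79.8 CPM in shCxxc5 in replicate order, without overlap between the groups. The pair ratios were 0.59, 0.11 and 0.05 on the log2 scale, so most of the separation of the means came from replicate 2. edgeR gave 0.25 (SE 0.12, adjusted p 0.940) over all 6 libraries and 0.09 (SE 0.05, adjusted p 0.245) in replicates 3 and 4. Exons of Bid share 628 bases with Bcl2l13 on the opposite strand, a gene with about as many reads as Bid (10545 against 10027 in all), and counting without regard to strand, which the sources used here do not settle, would mix them. Bad, whose protein is held inactive by growth factor kinases, lay between 23.5 and 24.9 CPM in shCtrl and between 24.3 and 28.0 CPM in shCxxc5. Its fitted change was 0.17 (SE 0.08, edgeR adjusted p 0.142) in replicates 3 and 4, and its exons share 524 bases with the antisense gene Gpr137.

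Mcl1 was the most abundant member per length of exon, the scale on which different genes can be compared. It lay between 87.0 and 100.8 CPM per kilobase in the 6 libraries, ahead of Bak1 (45.2 to 59.1) and Bax (29.1 to 45.0), whose ranges do not overlap either. Below these, Bid (17.4 to 26.3), Pmaip1 (8.43 to 25.2), Bbc3 (5.37 to 21.7) and Bcl2l1 (7.11 to 18.9) overlapped one another, as did Bcl2 (7.79 to 12.2) and Bad (9.18 to 10.9), and Bcl2l11 was lowest at 4.61 to 7.03 CPM per kilobase. Exon length here is the union over all transcripts of a gene, which is long for Bcl2 (9157 bases) and Bcl2l11 (8029 bases) against 1576 bases for Bax, so the order depends on the length used. By coding length the mean log2 ratio of Mcl1 over the libraries was 0.89 to Pmaip1 and 0.996 to Bak1, which puts Pmaip1 above Bak1, and that of Bcl2 to Bax turned from -1.69 to 0.60. Bcl2l11 was not lowest by coding length. Bad had fewer CPM in every library (23.5 to 28.0 against 37.0 to 56.5) over a longer coding sequence (933 against 647 bases).

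The 3 pro-survival transcripts moved little with the hairpin where the libraries were alike. Mcl1 lay at 334, 306 and 321 CPM in shCtrl replicates 2, 3 and 4 and at 345, 298 and 297 CPM in shCxxc5, with overlapping groups and a log2 fold change of -0.07 (SE 0.04, edgeR adjusted p 0.193) in replicates 3 and 4. Bcl2 lay at 71.3, 111 and 111 CPM in shCtrl and 98.5, 104 and 107 CPM in shCxxc5. Only shCtrl replicate 2 was far from the rest for Bcl2, and the change in replicates 3 and 4 was -0.07 (SE 0.05, edgeR adjusted p 0.339). Bcl2l1 lay at 86.5, 36.4 and 34.8 CPM in shCtrl and at 44.4, 36.0 and 32.6 CPM in shCxxc5. Here too shCtrl replicate 2 was the library that stood off, and the change in replicates 3 and 4 was -0.05 (SE 0.07, edgeR adjusted p 0.735).

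For Bcl2l1 the pair 2 ratio was -0.96 on the log2 scale, and it was -0.02 and -0.09 in pairs 3 and 4. Bcl2l1 and Bbc3 were both highest in shCtrl replicate 2, the library with the most megakaryocyte RNA (Pf4 at 1734 CPM there, 471 CPM in the other library numbered 2 and 21.4 to 36.3 CPM in the remaining libraries). In bulk libraries, fewer cells of a type and less RNA per cell cannot be told apart, and the part of megakaryocyte RNA in the Bcl2l1 level was not tested.

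The effector transcripts were a little higher with the hairpin in replicates 3 and 4. Bak1, whose protein sits in the outer mitochondrial membrane, lay at 115, 111 and 109 CPM in shCtrl and at 142, 120.4 and 116 CPM in shCxxc5, so that the groups did not overlap. Bax, whose protein moves from the cytosol to mitochondria, lay at 70.9, 45.9 and 48.5 CPM in shCtrl and at 65.1, 52.1 and 52.9 CPM in shCxxc5, with overlap through replicate 2. In replicates 3 and 4 edgeR gave log2 fold changes of 0.12 (SE 0.04, adjusted p 0.0671) for Bak1 and 0.16 (SE 0.06, adjusted p 0.0649) for Bax. With the replicate number as a block in those 4 libraries both passed, at adjusted p of 0.0485 and 0.0484 by edgeR, in a fit that called 3300 genes against 2833 without the block. That block assumes that equal numbers pair the libraries, which the data do not show for numbers 3 and 4. Exons of Bak1 share 614 bases with the antisense gene Ggnbp1, which had 343 reads against 15487 for Bak1.

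**Figure D2:**
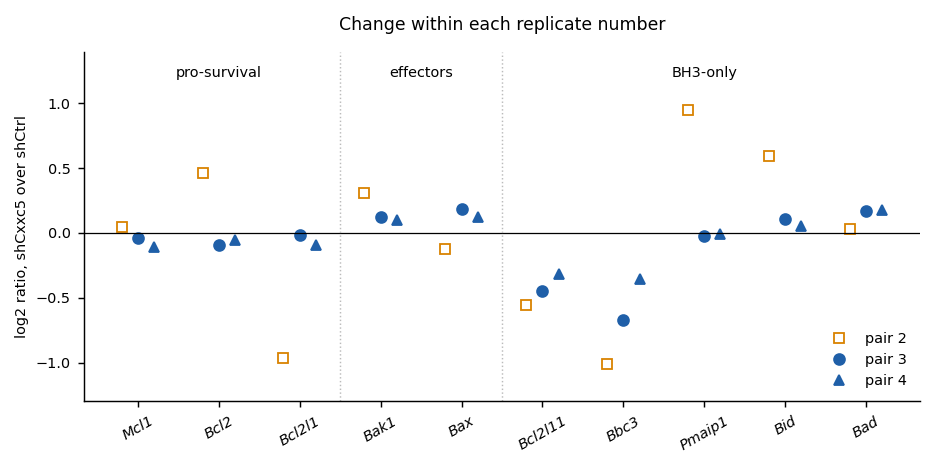
Log2 ratio of CPM, shCxxc5 over shCtrl (y axis), within the libraries numbered 2 (open squares), 3 (circles) and 4 (triangles) for the 10 members grouped by role. Bcl2l11 and Bbc3 lie below 0 in all 3 pairs, while Pmaip1, Bcl2 and Bid lie well above 0 in pair 2 (0.95, 0.47 and 0.59) and near 0 in pairs 3 and 4.

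Set side by side, the 3 pro-survival members had a median log2 ratio of 0.05 in pair 2, -0.04 in pair 3 and -0.09 in pair 4, and the 7 pro-death members one of 0.03, 0.11 and 0.05. The medians over all tested genes were -0.04, -0.01 and 0.00 in these pairs. In replicates 3 and 4 the 7 pro-death members ran from -0.52 (Bbc3) to 0.17 (Bad) and the 3 pro-survival members from -0.07 to -0.05. A range widens with the number of genes, so these 2 ranges are not a like comparison. In pair 2 the pro-survival members ran from -0.96 to 0.47 and the pro-death members from -1.01 to 0.95. Members with the same direction in all 3 pairs were Bcl2l1, Bcl2l11 and Bbc3 on the lower side and Bak1, Bid and Bad on the higher side, against 22.4% and 19.0% of all tested genes.

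Ratios of 2 transcripts within a library do not depend on how the library is scaled. Mcl1 exceeded Bcl2l11 per kilobase by 13.9, 14.3 and 15.3 times in shCtrl replicates 2, 3 and 4 and by 21.1, 18.9 and 17.6 times in shCxxc5. The ratio of Bcl2 to Bcl2l11 was 1.11, 1.93 and 1.98 in shCtrl and 2.25, 2.47 and 2.38 in shCxxc5. Both ratios were higher in shCxxc5, without overlap of the groups. By coding length the mean log2 ratio of Mcl1 to Bcl2l11 over the libraries was 2.21 in place of 4.06. Mcl1 to Bak1 was 2.05, 1.95 and 2.08 in shCtrl and 1.71, 1.74 and 1.80 in shCxxc5, lower without overlap. Each of these ratios had p = 0.1 in a two-sided exact permutation test, below which 3 libraries a group cannot go, or 0.16 when adjusted over the 8 ratios compared. The ratios share genes and in part restate the separation of Bcl2l11 and of Bak1 given above. How often ratios of other gene pairs separate the groups was not computed.

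Bcl2l1 to Bak1 was likewise lower with the hairpin, at 0.147 to 0.164 against 0.168 to 0.396 in shCtrl, as was Bcl2l1 to Bax (0.212 to 0.237 against 0.246 to 0.420), each without overlap, with the same exact p of 0.1 (0.16 adjusted) and with the highest value in shCtrl replicate 2. Mcl1 to Pmaip1, Bcl2 to Bax and Bcl2l1 to Bad overlapped between the groups. The 3 pro-survival transcripts summed per kilobase were 0.794, 0.752 and 0.777 of the 7 pro-death transcripts in shCtrl and 0.722, 0.703 and 0.701 in shCxxc5, without overlap, and no test was run on this quotient. Mcl1 made up 78.6% to 83.1% of the first sum, and Bak1 and Bax 51.6% to 59.7% of the second, so this quotient mainly sets Mcl1 against the effectors. With coding length in place of exon length it was lower in each pair but the groups overlapped (0.716 to 0.852 in shCtrl and 0.687 to 0.744 in shCxxc5).

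**Figure D3:**
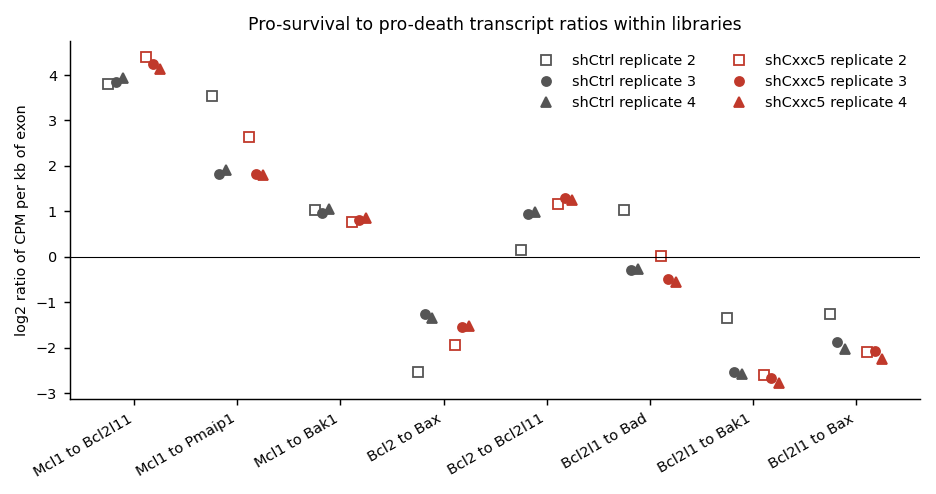
Log2 ratio of CPM per kilobase of exon (y axis) for 8 pairs of a pro-survival and a pro-death transcript in each library, shCtrl grey and shCxxc5 red, with open squares for replicate 2, circles for replicate 3 and triangles for replicate 4. The groups are separated upward for Mcl1 to Bcl2l11 and Bcl2 to Bcl2l11 and downward for Mcl1 to Bak1, Bcl2l1 to Bak1 and Bcl2l1 to Bax.

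Between the libraries numbered 2 and the rest, 4 of 10 members differed by edgeR with the group in the fit, where 36.4% of all tested genes did (17.7% higher and 18.7% lower). Bbc3 (log2 difference 1.12, SE 0.14), Bcl2l1 (0.85, SE 0.19) and Bax (0.45, SE 0.08) were higher in replicate 2, and Pmaip1 was lower (-1.05, SE 0.21), at adjusted p of 0.00214, 0.0175, 0.00842 and 0.0117. Replicate 2 held 34.6 CPM of Bbc3 on average against 15.3 CPM in the other libraries, and 33.8 CPM of Pmaip1 against 68.2 CPM. The call of Bcl2l1 was lost without shCtrl replicate 3 (edgeR adjusted p 0.0720), without shCtrl replicate 4 (0.0624) and with no filter on low counts (0.0673). With no filter that of Pmaip1 was lost too (edgeR adjusted p 0.107), and Bcl2 was called (0.0314). Without shCtrl replicate 2 or without shCxxc5 replicate 2 the same comparison called 7 members, with 7250 and 8816 genes called in all, but 1 library then stands for replicate 2, its spread is taken from the others, and Bid was called in opposite directions (0.23 and -0.28). The effect of the hairpin itself differed between replicate 2 and the other replicates for 7 members (4 higher and 3 lower in replicate 2), where 35.8% of all genes differed (16.8% higher and 19.0% lower); Mcl1, Bcl2l11 and Bad were the members that did not pass.

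The promoters of Bcl2l11 and Bbc3, the 2 members that fell, are shown because both carry the same forkhead motif in 1 of their RefSeq windows (GRCm38.p6, 250 bases before to 50 after an annotated start). FOXO factors, which bind this motif, are known activators of both genes in cells deprived of growth factors. The first run below is the plus strand of chr2:128125788-128126037, just upstream of a start of Bcl2l11, and the second the plus strand of chr7:16310011-16310260, upstream of a start of Bbc3. Capitals mark GTAAACA or its reverse complement TGTTTAC, which begin 227 and 167 bases upstream of the start. The Bbc3 match, at 16310094 to 16310100, lies inside the annotated gene, whose first base is 16308393.
Bcl2l11: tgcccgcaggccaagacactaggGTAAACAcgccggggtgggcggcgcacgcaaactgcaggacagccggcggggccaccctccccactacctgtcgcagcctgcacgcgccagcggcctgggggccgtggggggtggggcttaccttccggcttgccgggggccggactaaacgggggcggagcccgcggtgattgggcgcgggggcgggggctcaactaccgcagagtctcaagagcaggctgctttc
Bbc3: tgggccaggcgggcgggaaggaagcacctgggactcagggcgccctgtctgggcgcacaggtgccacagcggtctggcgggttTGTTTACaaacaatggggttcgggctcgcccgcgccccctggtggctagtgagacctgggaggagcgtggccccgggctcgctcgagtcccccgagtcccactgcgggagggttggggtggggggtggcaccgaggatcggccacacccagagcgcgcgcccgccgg

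Among the 15 windows of the 9 members that have one, these 2 were the only windows with that motif, which 3.65% of all 32841 windows hold on either strand. The palindromic E-box CACGTG occurred in 1 window each of Bax and Bbc3 (7.15% of all windows), and TGATGNAAT, a C/EBP-ATF motif, and the palindrome TGACGTCA, a cyclic AMP response element, in no member's window (0.965% and 1.79% of all windows). Both strands were searched, and a match is a description of the letters and not of binding. Windows of members held 1 to 44 CpG, the dinucleotide that CXXC domains recognise when unmethylated, with a median of 27 against 7 over all windows. All windows include those of genes that did not pass the filter on low counts, while every member passed it. The median over windows of expressed genes was not computed, so the contrast does not set the members apart from expressed genes. For Bcl2l11 the count was 27 and 38 in its 2 windows and for Bbc3 30 to 39 in its 3.

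By position in GRCm38, Bcl2l11 (ENSMUSG00000027381) spans 128126038 to 128162547 on chromosome 2, plus strand, and Bbc3 (ENSMUSG00000002083) spans 16308393 to 16318205 on chromosome 7, plus strand. Neither shares exon bases with another annotated gene. Mcl1 and Bcl2l1 share none either, Bax shares 192 bases with a gene on its strand that had no read, and Bcl2 shares 558 bases with an antisense gene that had 1 read.

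Of the upstream factors, 3 of 7 tested fell in replicates 3 and 4 by edgeR and 0 rose, against 1278 of all 14193 genes that fell there. The list was chosen with earlier results of these data known, so this count is a description only. Those that fell were Ddit3 (-1.43, SE 0.13, adjusted p 2.37e-09), which encodes the stress factor CHOP, and the forkhead factors Foxo1 (-0.53, SE 0.14, adjusted p 0.00799) and Foxo3 (-0.13, SE 0.04, adjusted p 0.0167), all known activators of Bcl2l11 or Bbc3. Whether these factors or the forkhead motif have a part in the lower Bcl2l11 and Bbc3 levels was not tested. Foxo3 lay at 245, 211 and 206 CPM in shCtrl and at 220.4, 193 and 186 CPM in shCxxc5 in replicate order, lower in each pair with overlap between the groups. Foxo1 was scarce, at 8.75, 8.88 and 9.22 CPM in shCtrl and 4.52, 6.15 and 6.36 CPM in shCxxc5, without overlap. Trp53 did not pass (-0.02, SE 0.06, adjusted p 0.853), and Stat5a stood at -0.11 (SE 0.05, adjusted p 0.0952).

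Other family members were mostly scarce, and of 5 further pro-survival genes 3 could be tested in replicates 3 and 4. Bcl2l2, which encodes BCL-W, fell by 0.28 on the log2 scale (SE 0.09, edgeR adjusted p 0.0328), from 37.5, 21.5 and 22.9 CPM in shCtrl to 30.5, 17.3 and 19.2 CPM in shCxxc5. Its exons have 594 bases in common with Gm20521, which lies on its strand. Bcl2a1b and Bcl2a1d, copies of the A1 gene, were called lower as well at adjusted p of 0.0283 and 0.0297, but on 4 to 28 reads per library of replicates 3 and 4 and with near-identical copies between which reads can be split, so their values are uncertain. Bcl2a1a and Bcl2l10 did not pass the filter.

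Of the further BH3-only genes Bmf, which like BIM is tethered to the cytoskeleton, fell by 0.34 (SE 0.11, edgeR adjusted p 0.0236). It lay at 15.1 and 15.4 CPM in shCtrl replicates 3 and 4, at 11.6 and 12.4 CPM in shCxxc5, and at 6.51 and 5.38 CPM in the libraries numbered 2. Bok, another pore-forming protein, rose by 0.56 (SE 0.16, adjusted p 0.0115), from 5.13 and 5.05 CPM to 7.18 and 7.84 CPM in replicates 3 and 4. Bik stood at 0.16 (SE 0.51) on at most 15 reads, and Hrk did not pass the filter. Of 5 tested genes outside the core family, the mitophagy receptors changed in opposite directions in replicates 3 and 4: Bnip3 fell by 0.25 (adjusted p 0.00265) and Bnip3l rose by 0.19 (adjusted p 0.00929), both with the opposite sign in pair 2 (0.21 and -0.18 on the log2 scale, interaction adjusted p 0.000165 and 0.000686), while Bcl2l12 (0.06), Bcl2l13 (0.00) and Bcl2l14 (-0.12) did not pass edgeR's test.

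Genes that act on BCL2 proteins or below them were tested from lists in replicates 3 and 4. These lists were chosen with earlier results of these data known, so their counts are a description only. Of 15 tested partners and regulators 6 rose and 2 fell by edgeR, against 1555 and 1278 of all 14193 genes. Pim1, a kinase that phosphorylates BAD, fell by 0.23 (SE 0.03, adjusted p 2.47e-06) and lay at 865, 847 and 855 CPM in shCtrl against 742, 724 and 721 CPM in shCxxc5, without overlap. Among those that rose were the outer membrane channel gene Vdac1 (0.26, SE 0.04, adjusted p 5.16e-06), Fbxw7 (0.28, SE 0.06, adjusted p 0.00192), a ubiquitin ligase subunit that marks MCL1 for destruction, and the BAD kinase gene Rps6ka1 (0.17, SE 0.04, adjusted p 0.00260). Fbxw7 was lower in pair 2 (-0.26), against 0.17 and 0.42 in pairs 3 and 4.

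Of 13 apoptosome, caspase and released-factor genes 3 rose and 0 fell, against 1555 and 1278 of all 14193 genes. They were Endog (0.42, SE 0.10, edgeR adjusted p 0.00432), Htra2 (0.16, SE 0.05, adjusted p 0.0147) and Aifm1 (0.15, SE 0.05, adjusted p 0.0251), which encode proteins of mitochondria that leave them during cell death, and Apaf1 stood at -0.10 (adjusted p 0.0669). The exons of Endog and Htra2 share 379 and 1288 bases with antisense genes. Of the 5 inhibitor of apoptosis genes Birc2 and Birc3, neighbouring genes that restrain death receptor signalling, both fell by 0.44 (SE 0.05 each, adjusted p 4.68e-08 and 6.42e-07), and Birc5 (0.12) and Birc6 (0.06) did not pass. Birc2 lay at 110 and 114 CPM in shCtrl replicates 3 and 4 against 81.2 and 82.5 CPM in shCxxc5. In replicate 2 its direction was the opposite, at 73.5 CPM in shCtrl and 80.9 CPM in shCxxc5 (log2 ratio 0.14). Birc3 was lower in each pair (-0.19, -0.50 and -0.38 in pairs 2, 3 and 4). Of 8 death receptor genes 0 passed edgeR's test over all genes, where the smallest p were those of Casp8 (0.08, adjusted p 0.134), Tradd (0.14, adjusted p 0.237), Cflar (-0.09, adjusted p 0.354) and Fas (-0.49, adjusted p 0.394).

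**Figure D4:**
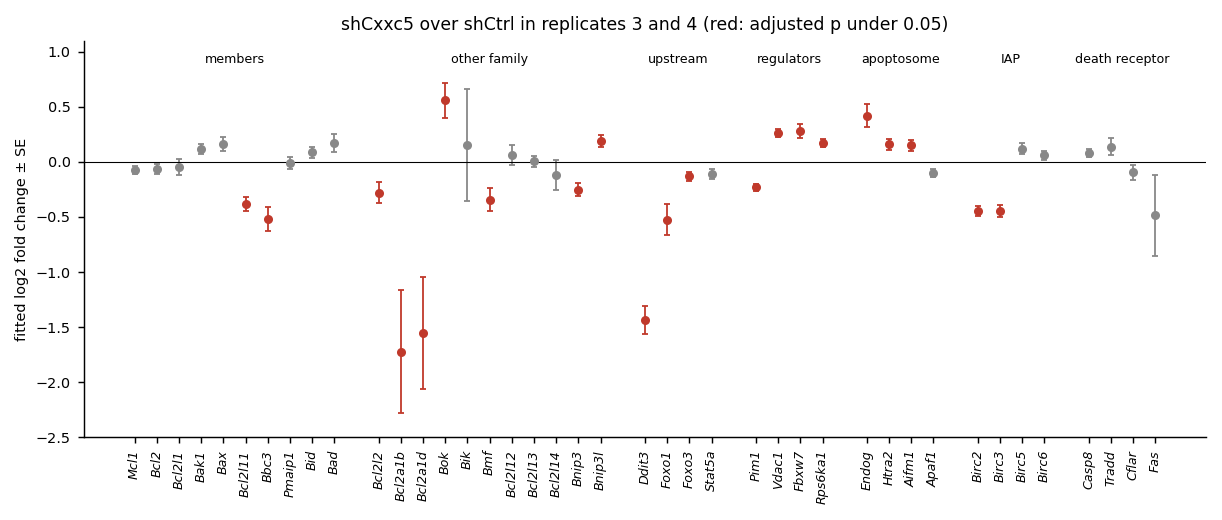
Fitted log2 fold change, shCxxc5 over shCtrl, with its SE (y axis) in replicates 3 and 4 for the members, other family genes and the 4 genes of smallest p of each pathway list, in red where edgeR's adjusted p was under 0.05. Among the members Bcl2l11 (-0.38) and Bbc3 (-0.52) are red, and Bcl2a1b, Bcl2a1d and Bik have the widest errors.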

How the data were processed

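The authors deposited raw read counts per Ensembl gene, from a stranded library kit per the labels' protocols. STAR 2.5.2b, featureCounts 1.5.1 and the build GRCm38 are named in the submitters' processing notes. The strand setting of the counting, and which annotation was used for it, is not given in the sources used here. Symbols came from GENCODE M21, which matched 49326 of 49671 identifiers. The test was the robust quasi-likelihood test of edgeR 4.0.16 (R 4.3.3) with TMM scaling, filterByExpr and the group as its sole term, and Benjamini-Hochberg adjustment over all tested genes and a threshold of 0.05. The SE of a log2 fold change is its size divided by the square root of F. CPM refers to reads in tested genes, scaled with TMM factors. Replicate 2 against the rest was fitted with the group as a term, and the difference of the effect as an interaction, with 2 residual degrees of freedom. Alternatives were DESeq2 1.42.0, limma-voom (limma 3.58.1), other scalings and filters, the replicate block and leaving out each library. The test code was checked on simulated counts. These were drawn with the means and spread of replicates 3 and 4 and without the shift of replicate 2. The check therefore does not show what the fits over all 6 libraries can detect in the real data.

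The members and lists were chosen with earlier results of these data known. All 10 members are named, of the other family genes those that passed the filter, and of each pathway list the 4 of smallest p in replicates 3 and 4; Trp53, Bcl2a1a, Bcl2l10 and Hrk were chosen after their values were seen. Libraries of equal number were taken as pairs. Deviations from group means correlated at 0.670, 0.554 and 0.489 between libraries of equal number 2, 3 and 4. Replicate 2 stands apart in both groups and shifts both means, so libraries 3 and 4 deviate together whatever their pairing. Values of 0.489 and 0.475 were found between number 3 of one group and number 4 of the other. The correlations therefore do not show that numbers 3 and 4 pair the libraries. Promoter sequences are RefSeq's (GRCm38.p6), and 9 of 10 members matched. One gene of the lists is not reported here.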

Additional observations from a re-analysis of the deposited data

Results flagged for a closer look

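The effect of the Cxxc5 hairpin differed between replicate 2 and replicates 3 and 4 for 7 of 10 members by the interaction term of edgeR's quasi-likelihood test, where 35.8% of all 14637 tested genes differed. Values are log2 differences of the effect, replicate 2 minus the others. They were higher in replicate 2 for Pmaip1 (0.97, SE 0.11, adjusted p 7.17e-10), Bcl2 (0.54, SE 0.08, adjusted p 6.42e-07), Bid (0.51, SE 0.09, adjusted p 7.41e-06) and Bak1 (0.20, SE 0.07, adjusted p 0.0323). They were lower there for Bcl2l1 (-0.91, SE 0.11, adjusted p 5.20e-09), Bbc3 (-0.48, SE 0.15, adjusted p 0.0107) and Bax (-0.28, SE 0.10, adjusted p 0.0210). With DESeq2 the calls of Bbc3 (adjusted p 0.223), Bax (0.292) and Bak1 (0.210) were lost, and with no filter on low counts edgeR lost that of Bax (adjusted p 0.0909). The spread in the edgeR fit comes from replicates 3 and 4 alone, and it assumes that the single replicate 2 libraries vary alike. The shCtrl and shCxxc5 libraries of replicate 2 also differed in summed megakaryocyte genes (7095 against 1670.2 CPM), in granulocyte and monocyte genes (1194 against 6282 CPM), in mast cell and basophil genes (341 against 1882 CPM) and in erythroid genes (434 against 1044 CPM). Tfrc alone made up 365 and 832 CPM of the erythroid sums. Mpo alone made up 360 and 2914 CPM of the granulocyte and monocyte sums, while Lyz2 and Csf1r were lower in the shCxxc5 library. The part of any of these marker genes in the differences of the effect was not tested.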

How the results depend on the processing

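Bcl2l11 stayed past the threshold in replicates 3 and 4 under all 11 alternatives, at -0.43 to -0.33, and Bbc3 under 10 of 11. The number of members called in replicates 3 and 4 was 4 with the replicate block (Bak1 and Bax added) and 1 to 2 without single libraries. Over all genes, 2833 were called there by edgeR, 1353 by DESeq2 and 1507 to 2043 without single libraries, which leaves fewer samples. Over all 6 libraries the number of members was 0 under all 13 alternatives, the replicate block among them. For replicate 2 against the others it was 3 to 7 without single libraries, with 3183 to 8816 genes called against 5330. For the difference of the effect it was 4 with DESeq2, which called 2390 genes against 5235; the cause was not tested; Bak1, Bax and Bbc3 were the members lost. Without single libraries the median log2 fold change over all 6 libraries ran from -0.105 to 0.00616 for pro-survival and from 0.0809 to 0.158 for pro-death members. Single members that changed sign without a library ran over all 6 libraries from -0.104 to 0.191 (Bcl2), -0.695 to 0.0836 (Bcl2l1), -0.105 to 0.00616 (Mcl1), -0.0681 to 0.266 (Bax) and -0.194 to 0.398 (Pmaip1), with no call. Bcl2l1 ran from -0.123 to 0.0174 in replicates 3 and 4, and Bid from -0.285 to 0.227 for replicate 2 against the others, where each of the fits lacking 1 replicate 2 library called it (adjusted p 0.000182 and 0.00102 by edgeR). With coding in place of exon length, the mean log2 ratio over the libraries was 2.21 for Mcl1 to Bcl2l11 (4.06 by exon length), 0.89 for Mcl1 to Pmaip1 (2.25), 0.60 for Bcl2 to Bax (-1.69), 1.04 for Bcl2l1 to Bad (-0.09), -1.53 for Bcl2l1 to Bak1 (-2.42) and -0.70 for Bcl2l1 to Bax (-1.93), which shifts all libraries alike. Depth limits the scarce family genes most, with at most 53 reads per library for Bcl2a1b and 28 for Bcl2a1d.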

Other observations

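Within the replicate 2 pair, some genes around the family differed more widely than in pairs 3 and 4. Pim2, a kinase of BAD, lay at 169 CPM without and 65.9 CPM with the Cxxc5 hairpin in that pair and at 29.5 to 35.3 CPM in the other libraries. Its log2 ratios were -1.36, 0.15 and 0.26 in pairs 2, 3 and 4 (difference tested by edgeR's interaction term, adjusted p 4.03e-17). In replicates 3 and 4 Pim2 was called higher (0.20, SE 0.07, edgeR adjusted p 0.04998), opposite in sign to pair 2. Trp53 had ratios of -0.64, -0.01 and -0.05. Both genes are from the lists and were singled out after their values were seen.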
